A study of Homo sapiens with 62 samples.

Results

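Numbered splits 5 to 8 were compared with the remaining numbered splits, 1 to 4, 9 and 10. All 10 libraries were parts of 10-cell pools of GM12878, a human B-lymphoblastoid line immortalised with Epstein-Barr virus. The members were chosen by their titles and not by any measured value: 10 of the series' 62 samples carry a pool split number, 4 of them on the first side and 6 on the other. According to the study's design, pools of 10 cells were split into 10 samples that were then handled like single cells, to assess technical variation. Every library was untreated, so the sides differ only in their split numbers and in their laboratory experiment numbers, which run from 12821 to 12824 for splits 5 to 8 and from 13268 to 13273 for the rest. The titles of the second side also give a library number, from 217 to 226, which those of splits 5 to 8 do not. The labels do not say that all 10 parts came from a single pool, nor that the experiment numbers mark a batch, so side, pool and batch cannot be told apart. P-values below set the difference between the sides against the spread between these libraries, which may be technical. They treat the parts of a pool as independent libraries.

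SMART-seq copies polyadenylated RNA into cDNA by template switching and then amplifies the whole cDNA by PCR. A split holds about as much RNA as a single cell, so a transcript with few copies may enter some parts of a pool and miss others. Such a transcript is then read strongly in the parts that caught it and is at or near 0 elsewhere, while an abundant transcript is present in every part.

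Each file listed FPKM (fragments per kilobase of transcript, relative to each megafragment mapped, M) for 55040 annotated genes, called rows here. Of these, 49197 had an estimate with status OK in all 10 libraries, and 10002 also had a mean of 1 FPKM or more and were tested. They comprised 8015 protein-coding rows, 838 pseudogenes, 762 long noncoding rows, 91 small noncoding rows, 86 cytosolic ribosomal protein genes, 17 immunoglobulin rows, 15 mitochondrial rows and 178 with no class. The estimated depth was 12.6 to 19.2 M fragments in splits 5 to 8 and 11.8 to 20.6 M in the others (exact permutation test of the difference, p = 0.371). Among B cell markers, MS4A1, the CD20 antigen, ran from 274 to 995 FPKM over the 10 libraries, and CD79A, a chain of the B cell receptor, from 1.95 to 177 FPKM. Of the 25 B cell genes looked up, 15 to 19 were at 1 FPKM or more in each of splits 5 to 8 and 12 to 19 in each of the others. Markers of other cells were fewer. Of 10 T cell genes 1 to 3 reached 1 FPKM in each library, with summed levels of 65.4 to 239.4 FPKM in splits 5 to 8 and 3.27 to 232.5 in the others. TRAC, a constant segment of the T cell receptor, gave the highest single value among them (239.4 FPKM in split 6), and CD3D, part of that receptor's signalling complex, was at 0 in all 10. The summed level of 8 NK cell genes was 0 to 40.4 FPKM and 0.0399 to 92.2, that of 8 myeloid genes 1.46 to 53.8 and 1.66 to 10.3, and that of 7 epithelial genes 0 to 138.6 and 0 to 119.96 (4 of the 8 myeloid genes, CD14 included, were at 0 throughout). None of 6 erythroid genes reached 1 FPKM, and 1 of 6 fibroblast genes did, in split 8. The part of these markers in the results was not tested.

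Of the 10002 rows, 1 passed the test in the direction of splits 5 to 8 (0.01% of the rows, limma on log2(FPKM + 1) with Benjamini-Hochberg adjustment at 0.05), and 0 passed in the other direction (0% of the rows). The row that rose was PVT1, a long noncoding RNA gene that is rearranged or amplified in some tumours. It was measured at 485.9 FPKM in split 5, 104.3 in split 6, 115.0 in split 7 and 306.9 in split 8. In splits 1, 2, 3, 4, 9 and 10 it was at 0.133, 0.112, 0.113, 0.176, 0.480 and 0.00355 FPKM. All 4 libraries of the first side were thus above 100 FPKM and all 6 of the other side below 1, with no overlap. The log2 difference, taken with a pseudocount of 1, was 7.48 ± 1.04 (SE; limma adjusted p = 0.0399). PVT1 no longer passed when any library other than split 10 was left out (limma adjusted p between 0.0611 and 0.207, log2 difference 7.07 to 7.80), nor by an exact rank-sum test on each row (adjusted p = 0.774). In 10 further splits of GM12878 pools, whose titles carry no split number, 4 held it at 1 FPKM or more, with a highest value of 324.1 FPKM. The labels mark all but 1 of these 10 records as superseded by another series. The file places it on chromosome 8 from 128806779 to 129113499, a locus of 307 kb in the files' own coordinates, for which no source at hand names a build.

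At an unadjusted p under 0.05, limma counted 414 rows higher in splits 5 to 8 (4.14%) and 80 higher in the other splits (0.8%), 4.94% in all. The libraries of the sides did not overlap in 98 rows with splits 5 to 8 higher (0.98%) and in 27 rows with the others higher (0.27%), 1.25% in all. In 71 of those 98 rows, and in 11 of those 27, every library of the lower side was below 1 FPKM. Over all tested rows the median log2 difference was 0.33, and 59.4% of rows had a difference above 0. With median-of-ratios size factors the counts became 363 and 169 and the median 0.20. With each library's trend on locus length removed they became 207 and 239 and the median −0.07. That step also centres every library near the same value, and the part of this centring in the balance was not tested. Without split 9 the counts were 289 and 143 and the median 0.21. Without splits 7 and 8 they were 559 and 81 and the median 0. Here and below, leaving libraries out kept the same 10002 rows and their mean levels over all 10 libraries. Rows admitted through high values in splits 7 and 8 thus stayed in, and their part in these values was not tested. In the plot of differences against level, the rows at p under 0.05 with splits 5 to 8 higher are mostly at low and middle levels.

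**Figure D1:**
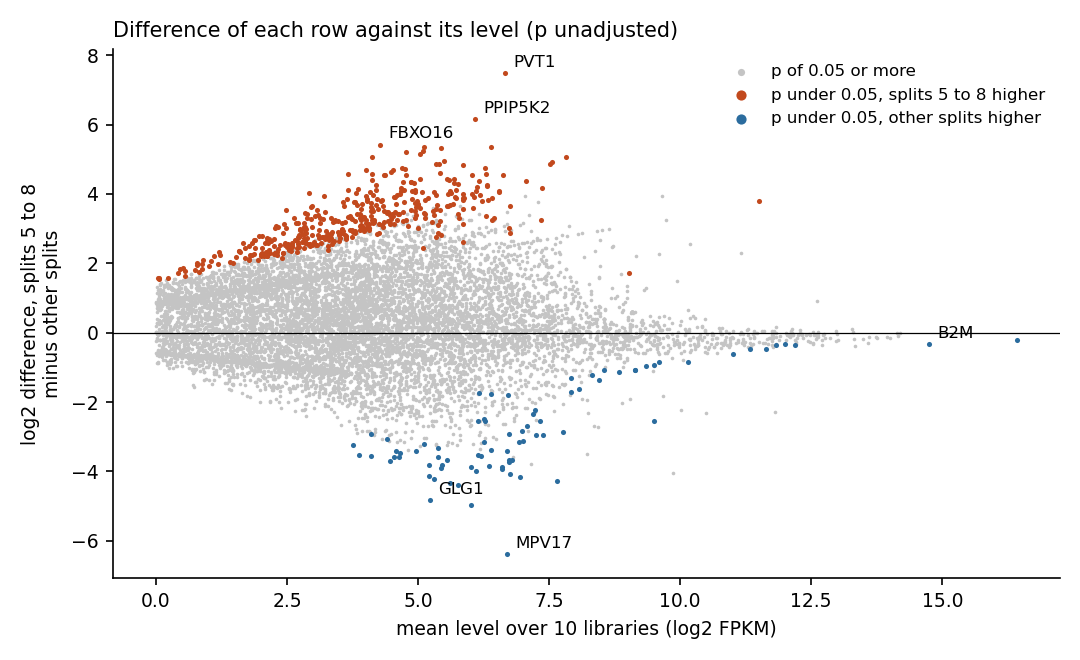
Log2 difference (splits 5 to 8 minus the other splits, on log2(FPKM + 1)) of each of the 10002 tested rows against its mean level in log2 FPKM over the 10 libraries. Coloured points have an unadjusted limma p under 0.05, 414 above 0 and 80 below 0. PVT1 alone passed after adjustment.

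The 7 rows of next smallest p with splits 5 to 8 higher, found in all 4 of these libraries, were all protein coding, and none passed. FBXO16, an F-box protein of a ubiquitin ligase, was at 100.2, 29.7, 30.4 and 33.2 FPKM in splits 5 to 8 and below 0.001 FPKM in each of the other 6 (log2 difference 5.42 ± 1.01 SE, limma adjusted p = 0.466). STAT5B, a transcription factor of cytokine signalling, was at 73.4, 15.1, 33.6 and 50.7 FPKM against a highest value of 0.652 in the others. In both rows the sides were again fully apart. FBXO16 shares its locus with 2 other tested rows, ZNF395 and RP11-181B11.1, and the files do not say how fragments in shared sequence were divided.

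MTF2, a cofactor of the Polycomb repressive complex, was at 138.6, 85.9, 42.1 and 6.07 FPKM in splits 5 to 8 and at most 0.862 in the others (log2 difference 5.20, limma adjusted p = 0.649). NUDC, which binds the dynein motor and whose locus overlaps that of GPATCH3, was at 61.5, 37.8, 4.87 and 56.1 FPKM against at most 0.966. PPIP5K2, a kinase that makes inositol pyrophosphates, was at 163.8, 292.3, 115.3 and 65.1 FPKM, and 43.4 in split 10, with the other 5 below 0.1. PPIP5K2 had no overlap between the sides either, although split 10 stood close to split 8. PARP9, an ADP-ribosyltransferase family member whose locus overlaps that of DTX3L, was at 51.3, 33.6, 13.3 and 26.4 FPKM against at most 1.85. SIKE1, which restrains a kinase of antiviral signalling, was at 104.8, 80.9, 58.7 and 75.4 FPKM, with 23.8 in split 9 and at most 1.09 in the remaining 5 libraries. In the unnumbered splits FBXO16 was at 1 FPKM or more in 0 of 10, STAT5B in 2, SIKE1 in 3, MTF2, PARP9 and NUDC in 7 each and PPIP5K2 in 9.

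In the opposite direction, the rows of smallest p also failed the test. MPV17, a protein of the inner mitochondrial membrane, was at 0.364 FPKM in split 5 and 0 in splits 6, 7 and 8. In splits 1, 2, 3, 4 and 9 it was at 150.2, 139.8, 319.7, 201.5 and 227.1 FPKM, and in split 10 at 0.642 (log2 difference −6.37 ± 1.44 SE, limma adjusted p = 0.649). The sides were thus apart in MPV17 only by the narrow gap between split 5 and split 10, and 5 of the 6 other libraries were above 100 FPKM. GLG1, a Golgi membrane glycoprotein, was at 0.149, 9.22, 0.383 and 0 FPKM in splits 5 to 8 and at 21.98 to 89.1 in all 6 others. HSPE1, the co-chaperonin of the mitochondrial matrix, was detected everywhere: 387.9, 265.9, 347.5 and 343.9 FPKM in splits 5 to 8 against 553.9 to 835.3. Its sides did not overlap, with a log2 difference of −1.08 ± 0.33 (SE, limma adjusted p = 0.832), and its locus overlaps that of its partner HSPD1.

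B2M, the light chain of MHC class I, was the second most abundant row of all. It was at 24765, 25908, 22942 and 21105 FPKM in splits 5 to 8. In splits 1 to 4 it was at 30695 to 33772 FPKM, in split 10 at 28950 and in split 9 at 21467, so the sides overlapped only through split 9. Its log2 difference of −0.33 ± 0.11 (SE) did not pass (limma adjusted p = 0.832), and did with median-of-ratios size factors, at −0.57 (limma adjusted p = 0.0306). NUTF2, an import factor for the GTPase Ran, was at 4.55 to 88.9 FPKM against 126.7 to 369.3. TMEM230, a membrane protein of transport vesicles, was at 0.822 to 45.7 FPKM against 39.1 to 167.3. RSRC2, an arginine- and serine-rich protein, was at 1.35 to 39.0 FPKM against 53.1 to 245.9. HAT1, a histone acetyltransferase, shares its locus with SLC25A12. It was at 75.8, 2.32e-10, 0.184 and 48.3 FPKM in splits 5 to 8 against 59.99 to 327.2. Of these, NUTF2 and RSRC2 did not overlap between the sides and the other pair did, at limma adjusted p = 0.832 each.

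**Figure D2:**
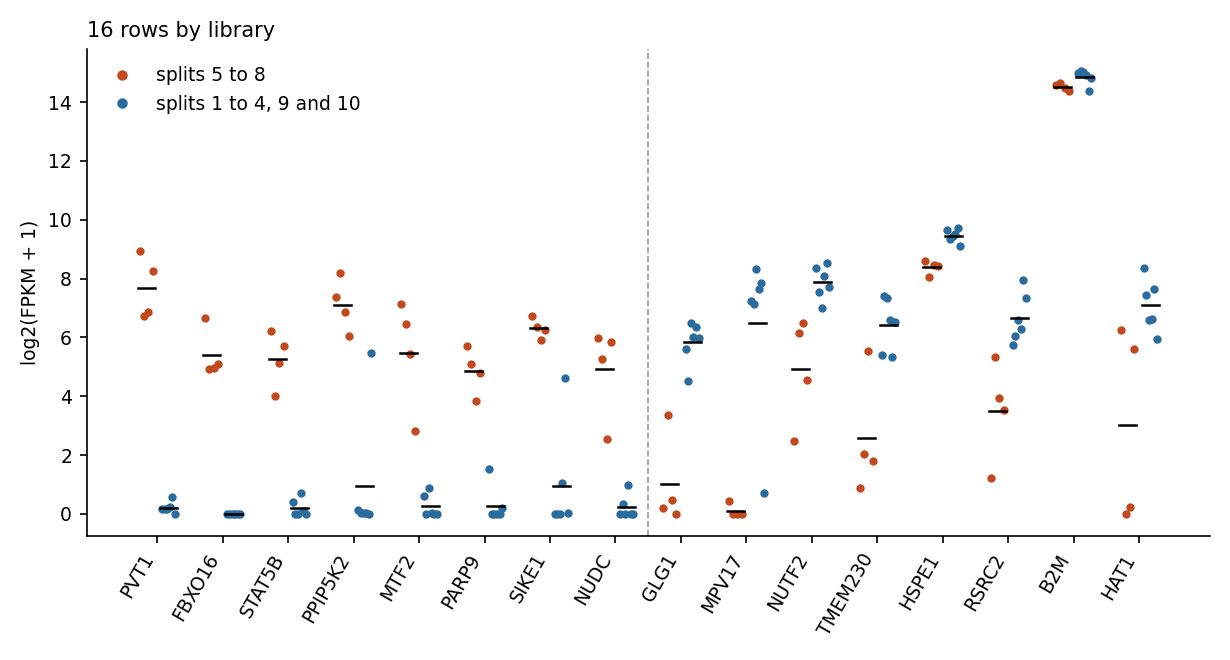
Values of the 16 rows above in each library as log2(FPKM + 1). Each point is a library, each black bar the mean of its side, and the dashed line separates rows higher in splits 5 to 8 from rows higher in the others. PVT1 is above 100 FPKM in all 4 splits 5 to 8, while MPV17 is at 139.8 FPKM or more in 5 of the other 6.

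Presence at 1 FPKM or more was also counted, from the same values. Of the 12670 rows seen in at least 1 library, 15 were seen in all 4 of splits 5 to 8 and in none of the other 6. The opposite pattern, all 6 others and none of splits 5 to 8, held 0 rows. A row had to be present in 4 libraries for the first pattern and in 6 for the second, so the counts are not equally strict. Splits 7 and 8 also held the most rows, 7713 and 6651, which can make the first pattern more frequent by itself. That part was not tested. Of the 15, PVT1 and RP4-816N1.7 were long noncoding and 13 were protein coding. Besides those named above they were C12orf51, CHKA, DENND5B, EXOC2, MAPK9, METTL15, SLC16A7, TFIP11 and ZNF138. EXOC2, a subunit of the exocyst that tethers vesicles at the plasma membrane, was even across splits 5 to 8 at 12.6, 11.96, 24.4 and 25.6 FPKM, and reached 0.997 FPKM in split 1. MAPK9, a stress-activated kinase, was at 60.9, 8.92, 11.3 and 10.7 FPKM, and at 0.920 FPKM in split 1. EXOC2 and MAPK9 therefore lay just under the detection level in a library of the other side. SLC16A7, a monocarboxylate transporter, was at 121.4 FPKM in split 6 and 2.41 to 5.66 in the other 3. Among the 15 rows the median locus was 77.5 kb, against 24.8 kb for the 12670 rows seen in at least 1 library. The 15 had to be present in splits 7 and 8, the libraries that detected long loci most often.

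The number of rows seen differed more within splits 5 to 8 than between the sides. Split 7 held 7713 rows at 1 FPKM or more and split 8 held 6651, while splits 5 and 6 held 5247 and 5197. Splits 1, 2, 3, 4, 9 and 10 held 4574, 5589, 4910, 5156, 3801 and 5055. Splits 5 and 6 thus lay inside the range of the other side, and splits 7 and 8 above it. The means were 6202 ± 1212 (SD, n = 4) and 4848 ± 610 (SD, n = 6), with p = 0.0571 by a 2-sided exact permutation test and 0.184 after adjustment over 29 library measures. That test allows 210 assignments and a smallest p of 0.00952. Without splits 7 and 8 the difference fell from 1354 to 374.5 rows (exact permutation p = 0.429). Depth did not follow the same order: splits 7 and 8 were estimated at 14.1 and 15.05 M fragments, and split 9, with the fewest rows, at 19.7 M.

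The extra rows of splits 7 and 8 were of low and middle abundance. At 1 to 10 FPKM split 7 held 2798 rows and split 8 held 2245, against 1247 to 1599 in the other 8 libraries. At 10 to 100 FPKM they held 3667 and 3061, against 1098 to 2385. The order turned at high abundance: at 100 to 1000 FPKM splits 7 and 8 held 1062 and 1137 rows against 1251 to 1423, and at 1000 FPKM or more 186 and 208 against 205 to 248. Rows of 1000 FPKM or more carried 59.1% of the summed FPKM in split 7, 63.1% in split 8 and 63.4% in split 9, and 66.9 to 69.0% in the other 7. It took 1781 rows in split 7 and 1525 in split 8 to make up 90% of the summed FPKM, and 1016 to 1330 in the other 8 libraries.

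**Figure D3:**
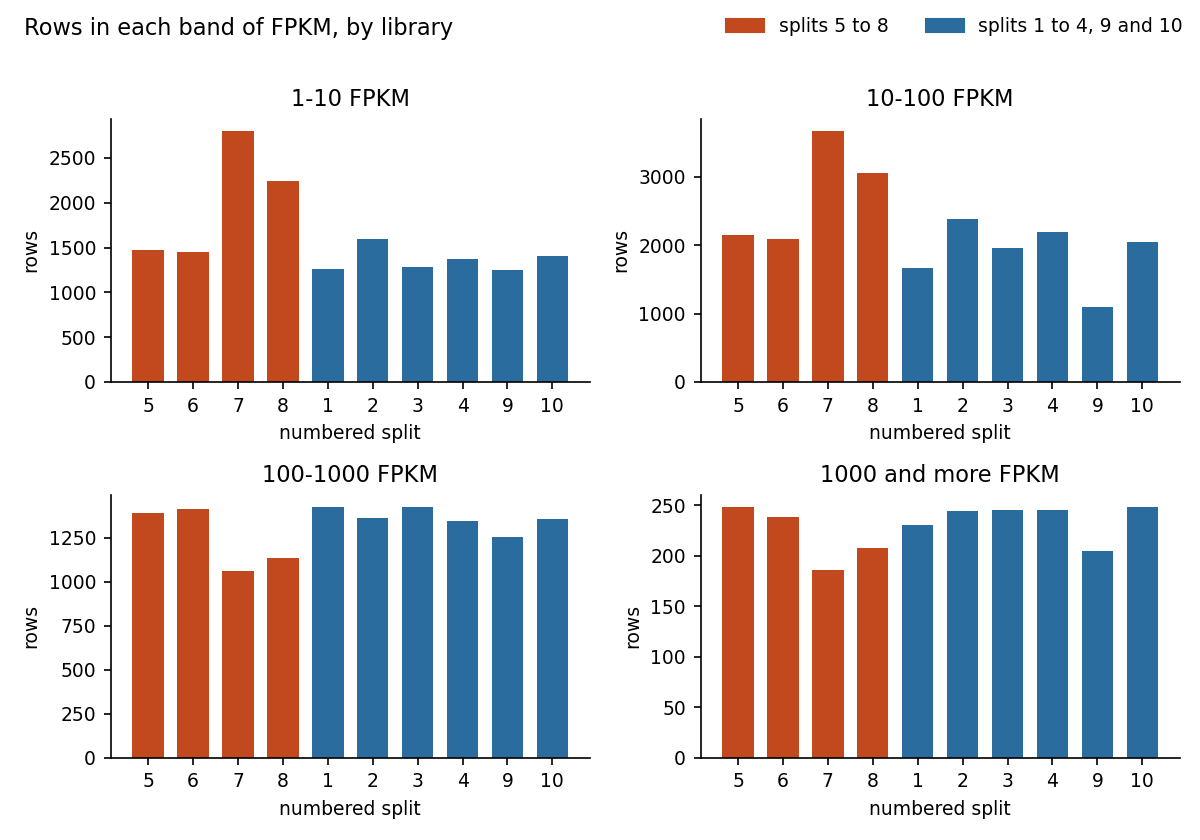
Number of rows with status OK in all 10 libraries that fell in each band of FPKM, by library, with splits 5 to 8 first. Splits 7 and 8 hold the most rows in the bands from 1 to 100 FPKM (3667 and 3061 at 10 to 100 FPKM) and the fewest at 100 to 1000 FPKM, whereas splits 5 and 6 are among the other libraries.

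By gene class, 58.0 ± 10.3% (SD, n = 4) of protein-coding rows were detected in splits 5 to 8 and 46.1 ± 6.32% (SD, n = 6) in the others (exact permutation p = 0.0667, adjusted 0.184). Long noncoding rows were detected at 26.9, 22.7, 46.2 and 38.2% in splits 5, 6, 7 and 8, and at 18.8 to 30.7% in the others (exact permutation p = 0.0952, adjusted 0.197). Pseudogenes moved less, at 65.4, 65.6, 72.2 and 68.9% against 54.3 to 67.5% (exact permutation p = 0.133, adjusted 0.258). In protein-coding and long noncoding rows, splits 7 and 8 were the highest of the 10 libraries, and so they were in pseudogenes. All 15 mitochondrial rows were detected in every library, and at least 84 of the 86 ribosomal protein rows were. The log2 ratio of pseudogene to protein-coding detection at a mean level of 10 to 100 FPKM averaged 0.36 in splits 5 to 8 and 0.60 in the others (difference −0.24, exact permutation p = 0.0857, adjusted 0.191). The difference was −0.15 without split 7 and −0.09 when both split 7 and split 8 were left out.

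Small noncoding rows, which hold spliceosomal and nucleolar RNAs, mostly had higher values in splits 5 to 8, but their share of summed FPKM did not pass. Of the 91 tested, 87.9% had a log2 difference above 0, with a median of 1.62, against 59.4% and 0.33 over all rows, and 0 passed limma's test (6, or 6.59%, were at an unadjusted p under 0.05 with splits 5 to 8 higher and 0 in the other direction, beside 4.14 and 0.8% over all rows). When splits 7 and 8 were left out the median was 0.66 and 54 of the 91 were above 0. The share of small noncoding rows in summed FPKM averaged 2.66% in splits 5 to 8 and 1.98% in the others (exact permutation p = 0.257, adjusted 0.392). Split 2, at 3.43%, was above splits 5, 6 and 7. The number detected was 50, 50, 52 and 60 in splits 5, 6, 7 and 8, and 36, 50, 44, 45, 35 and 37 in splits 1, 2, 3, 4, 9 and 10. Split 2 thus equalled splits 5 and 6, and the other 5 libraries were lower. Many of these rows were read in very few libraries. Rows were admitted by their mean over these same libraries, so a row could enter through the side where it was high. The U1 row of smallest p, a copy of the spliceosomal U1 RNA, was at 561.4, 0, 259.6 and 17.4 FPKM in splits 5 to 8 and 0 in the other 6 (log2 difference 5.34, limma adjusted p = 0.832). Loci this short get few fragments per unit of FPKM, and near-identical copies elsewhere in the genome make their values uncertain. RN28S1, a row carrying ribosomal RNA sequence, was at 805.2, 1028.1, 579.9 and 776.9 FPKM in splits 5 to 8 and at 532.1, 132.7, 191.6, 567.1, 41.8 and 545.9 in the others. Its sides did not overlap, though splits 7 and 4 were close (log2 difference 1.72, limma adjusted p = 0.832).

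**Figure D4:**
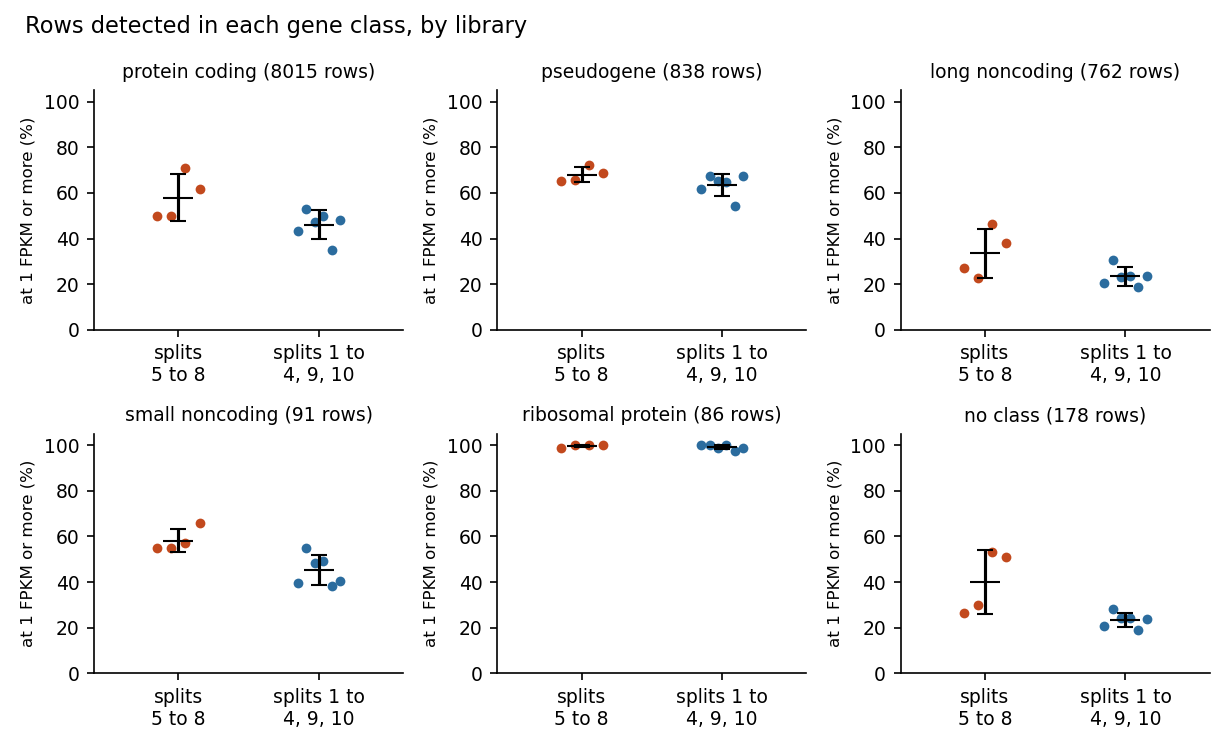
Share of the tested rows of each gene class at 1 FPKM or more in each library, in percent. Points are libraries and bars the mean ± SD of a side (n = 4 and n = 6). For long noncoding rows, splits 7 and 8 sit at 46.2 and 38.2%, above the other 8 libraries at 18.8 to 30.7%, while ribosomal protein rows were detected almost completely everywhere.

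By mean level, detection of rows at 1 to 10 FPKM was 26.7, 26.1, 52.0 and 40.1% in splits 5, 6, 7 and 8, and 17.3 to 29.8% in the others (exact permutation p = 0.0571, adjusted 0.184). At 10 to 100 FPKM it was 57.7, 58.2, 77.5 and 69.7% against 39.0 to 61.8% (exact permutation p = 0.0762, adjusted 0.184). At 1000 FPKM and more it was 98.7 to 99.1% against 98.7 to 100%, so the most abundant rows were found in nearly every part. The level contrast, the log2 ratio of detection at 1 to 10 FPKM to that at 100 to 1000 FPKM, averaged −1.45 ± 0.46 (SD, n = 4) and −1.95 ± 0.20 (SD, n = 6; exact permutation p = 0.0571, adjusted 0.184). Without splits 7 and 8 its difference fell from 0.50 to 0.12. With the level of each row taken from the unnumbered splits, which are not among these libraries, it was 0.29 (exact permutation p = 0.124). The median log2 difference of the rows ran the same way, from 0.48 at 1 to 10 FPKM through 0.40 and 0.05 to −0.15 at 1000 FPKM and more, where 19.9% of 226 rows were above 0. That order was not seen without splits 7 and 8, where the same medians were −0.11, 0.07, 0.32 and 0.13. The rows were still admitted and put into levels by the mean over all 10 libraries, splits 7 and 8 included. The part of that choice in these medians was not tested.

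Locus length, the span of a gene in the genome with its introns, separated splits 7 and 8 further. At loci of 100 kb or more 72.0% of rows were detected in split 7 and 61.6% in split 8, against 34.2 to 49.3% in the other 8 libraries. At loci under 3 kb the same libraries detected 67.1 and 62.1%, against 45.4 to 59.6%. This last measure had the smallest p of the 29 between the sides, at 61.8 ± 3.88% (SD, n = 4) and 55.0 ± 4.99% (SD, n = 6; exact permutation p = 0.0190, adjusted 0.184), so 0 of the 29 passed after adjustment and 1 was at an unadjusted p under 0.05. The median log2 difference rose over the 4 length classes, from 0.03 under 3 kb to 0.28, 0.45 and 0.55 at 100 kb and more. With splits 7 and 8 left out it was 0.01 under 3 kb and −0.18 at 100 kb and more, in rows still chosen with those libraries included. The share of rows at unadjusted p under 0.05 with splits 5 to 8 higher was 2.45, 3.72, 4.66 and 5.67% in the same order, beside 4.14% over all rows.

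Level and length are not independent in these rows, since the median locus was 28.1 kb at 1 to 10 FPKM and 4.22 kb at 1000 FPKM and more. Length was therefore read within a level. Among rows of 10 to 100 FPKM, detection in split 7 went from 74.8% under 3 kb to 83.3% at 100 kb and more, and in split 8 from 71.9 to 74.4%. In splits 5 and 6 it went from 66.2 to 54.0% and from 67.4 to 55.8%, and in the other side it ended lower as well, with split 9 going from 48.2 to 46.8%. By this level, splits 7 and 8 were the only libraries of the 10 in which the longest class was detected more often than the shortest. The length contrast, the log2 ratio of these shares, was −0.29, −0.27, 0.16 and 0.05 in splits 5, 6, 7 and 8 and −0.52 to −0.04 in the others (difference 0.20, exact permutation p = 0.181, adjusted 0.292). It was 0.12 without split 7 and 0.00668 when splits 7 and 8 were both left out. With quartiles of transcript length in place of locus length, its difference between the sides was 0.03 (exact permutation p = 0.543). Because a row's own high value in split 7 raises its mean, the level was also taken from the unnumbered splits, which are other libraries. Detection at 100 kb and more was then 76.0% in split 7 and 67.4% in split 8, against 37.8 to 53.5% in the other 8. Under 3 kb it was 75 and 69.2%, so by this level split 8 detected the longest class slightly less often than the shortest.

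**Figure D5:**
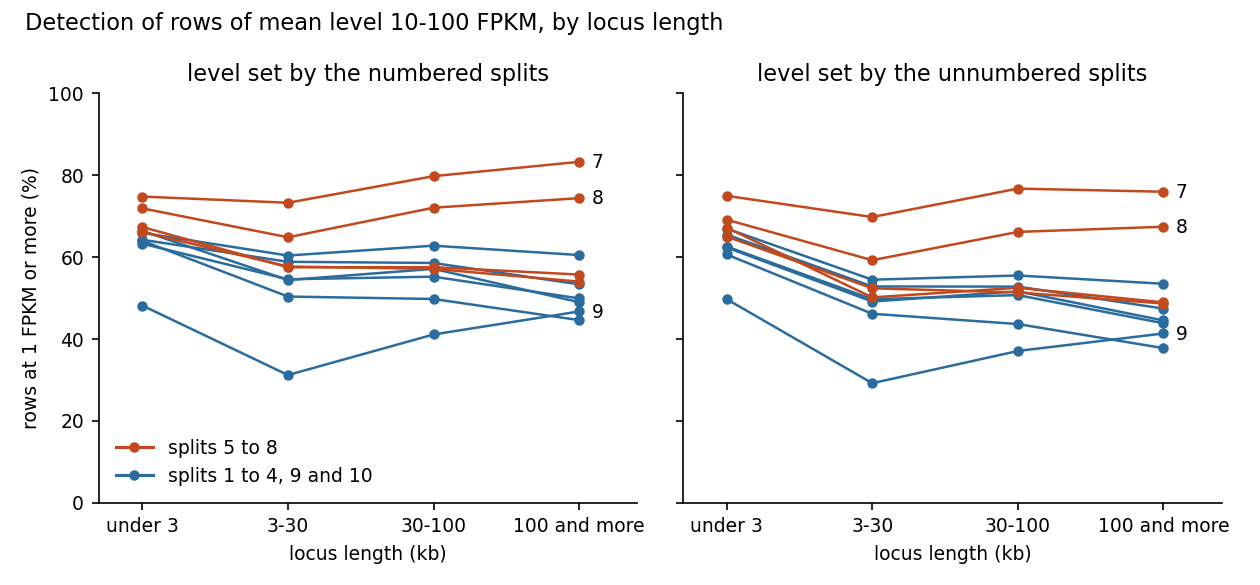
Share of rows of mean level 10 to 100 FPKM that were at 1 FPKM or more in each library, in percent, by locus length in kb, with the level set by the numbered splits (left) or by the unnumbered splits (right). Splits 7 and 8 are highest at 100 kb and more (83.3 and 74.4% on the left), while split 9 is lowest under 100 kb.

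Splits 7 and 8 also held rows that no other library held. Rows seen in split 7 alone numbered 825 and in split 8 alone 567, against 291 and 281 for splits 5 and 6 and 190 to 344 for the other side. A further 170 rows were seen in splits 7 and 8 and nowhere else, the most of any pair, whereas splits 5 and 6 shared 25 such rows. The next pair was splits 2 and 7, with 93. A larger number of rows in a library can make such pairs more frequent by itself, and its part was not tested. Of the 825 rows seen in split 7 alone 61.1% were protein coding and 23.6% long noncoding, with a median locus of 18.2 kb. These values resembled those of rows seen in 1 other library alone, where the protein-coding share was 50.5 to 67.5% and the median locus 13.6 to 27.8 kb. In the unnumbered splits 62.9% of the 825 rows were at 1 FPKM or more in 0 of 10 libraries, again inside the range of 61.3 to 68.8% over the other libraries. Olfactory receptor genes, a set chosen after the data were seen, gave 0 rows at 1 FPKM or more in splits 5, 6, 7 and 8 and 0 to 2 of 337 rows in the others. Above 0 FPKM there were 2, 3, 3 and 6 such rows in splits 5 to 8 and 3 to 8 in the others. The source of the extra rows in splits 7 and 8 was not tested.

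The most abundant rows were common to both sides. TMSB4XP6, a pseudogene that shares sequence with the thymosin gene TMSB4X, had the highest mean. It was at 93688, 92547, 66235 and 68402 FPKM in splits 5 to 8 and at 81457 to 105705 in the others (log2 difference −0.22, limma adjusted p = 0.832). ACTB, beta-actin, was at 23399, 24494, 11873 and 15582 FPKM in splits 5 to 8 and at 11104 to 21742 in the others. GAPDH, a glycolytic enzyme, was at 15711, 15168, 7758 and 9452 FPKM and at 7441 to 14583. In TMSB4XP6, ACTB and GAPDH alike, splits 7 and 8 were the lower pair of their side. FPKM is relative to all mapped fragments, so it gives a share and not an absolute amount. IGLC2, the constant region of a lambda light chain, was at 15487 to 22819 and 14641 to 22835 FPKM, and the ribosomal protein gene RPL14 at 14521 to 20002 and 10635 to 23082.

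None of the 23 pathway lists had a member that passed, in either direction, beside 1 of 10002 rows overall. The 86 tested genes for cytosolic ribosomal proteins, the proteins of the small and large ribosomal subunits, had differences of −0.13 at the median, 19 of 86 above 0, beside 0.33 over all rows. At an unadjusted p under 0.05, 0 of them were higher in splits 5 to 8 (4.14% over all rows) and 4, or 4.65%, in the others (0.8% over all rows). Their median level was 3464 FPKM, and among the 226 rows at 1000 FPKM and more the same shares were 0.44 and 3.98%, so 4.65% was near that of abundant rows. Of the 86, RPL35A, a protein of the large subunit, had the smallest p, at 3256, 2069, 2110 and 2955 FPKM in splits 5 to 8 and 2802 to 4509 in the others (log2 difference −0.46, limma adjusted p = 0.832). Its sides overlapped, with splits 5 and 8 above split 9. Nuclear-encoded subunits of oxidative phosphorylation had a median of −0.13 (19 of 49 above 0), glycolytic enzymes −0.14 (5 of 18) and elongation factors with other messages of the translation machinery −0.09 (8 of 20). ATP5J, a subunit of ATP synthase, was at 653.5, 194.5, 294.2 and 622.9 FPKM against 619.8 to 1297. These 4 lists of abundant housekeeping genes had medians below 0, as had the 226 rows at 1000 FPKM and more (−0.15). All 4 medians were above 0 without splits 7 and 8, at 0.16, 0.17, 0.25 and 0.22 in the same order, and 68 of the 86 ribosomal protein genes had a difference above 0. Rescaling FPKM to the same sum gave −0.02, −0.01, −0.06 and 0.02, and size factors gave −0.37, −0.36, −0.36 and −0.33. Both scalings moved abundant rows in general, with the median at 1000 FPKM and more going from −0.15 to −0.04 and −0.39. The 12 genes encoded by the mitochondrial genome had a median of −0.04 (3 of 12 above 0), and MT-ND2, a subunit of complex I, was at 1569 to 2424 FPKM against 1838 to 3740.

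Genes of B cell function varied from part to part without passing. For the 22 tested B cell identity genes the median log2 difference was 0.45 (14 of 22 above 0), and 0.04 (11 of 22) when split 9 was left out. CD40, a receptor for T cell help, was at 8.25, 118.7, 121.9 and 18.2 FPKM in splits 5 to 8 and at 78.1 to 291.2 in the others, an overlap through splits 6 and 7 (log2 difference −2.23, limma adjusted p = 0.832). The 16 genes of MHC class II presentation had a median of 0.14 (10 of 16), the 17 of class I 0.22 (11 of 17) and the 27 of NF-kB and virus-associated activation 0.03 (14 of 27). Leaving out split 9 took the class I median to −0.05 (8 of 17). HLA-DMB, which helps load peptides on class II, was at 196.2, 0, 20.5 and 12.4 FPKM in splits 5 to 8, at 50.2 in split 3 and below 1 in the other 5. The plasma cell receptor TNFRSF17 was at 41.4, 72.6, 24.7 and 13.2 FPKM, and at 242.9, 0.121 and 2.12 in splits 1, 2 and 3. It was near 0 in splits 4, 9 and 10, so the highest single value stood on the other side (limma adjusted p = 0.832). For genes that respond to interferon the median was 0.74 (16 of 24 above 0) and stayed above 0 under each scaling, though at 0.07 without split 9, and MX1, an antiviral GTPase, was at 354.0 to 546.4 FPKM against 181.2 to 505.2.

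Among the cell cycle genes some were read in every part and others were not. PTTG1, a securin that delays the separation of sister chromatids, was at 278.7 to 938.1 FPKM over the 10 libraries. RPA3, a subunit of the single-strand DNA binding complex of replication, was at 187.8 to 653.4. CDC20, an activator of the anaphase-promoting complex, was at 105.5, 101.7, 49.8 and 173.5 FPKM in splits 5 to 8. Among the others split 3 held 201.9 and split 10 held 25.1 FPKM, and the remaining 4 were below 0.2 (log2 difference 4.54, limma adjusted p = 0.832). The G2/M list had a median of 0.23 (18 of 30 above 0) and the S phase list 0.43 (15 of 24), or 0.04 (12 of 24) without split 9. Per library, 24, 22, 25 and 18 of the 30 G2/M genes were at 1 FPKM or more in splits 5 to 8, and 10 to 23 in the others, with the 10 in split 9. In other lists, SNHG1, a host transcript of small nucleolar RNAs, was at 182.1, 126.2, 139.9 and 160.5 FPKM in splits 5 to 8. In the others it reached 98.7 in split 2 and 133.5 in split 3, was at 10.7 in split 9, and lay at 0 to 1.99 in splits 1, 4 and 10. PSMC4, an ATPase of the proteasome, was at 77.4, 81.4, 39.4 and 76.7 FPKM, and at 89.3 in split 3, 59.2 in split 10 and 0 to 3.49 in the other 4. SNHG1, PSMC4 and CDC20 were each present in all of splits 5 to 8 and missing or near 0 in several of the others, and none passed (limma adjusted p = 0.832). Immediate early genes, which respond to handling, had a median of 0.56 (11 of 14 above 0), or −0.64 without splits 7 and 8, and 4, 10, 12 and 11 of all 25 genes on that list were at 1 FPKM or more in splits 5 to 8 against 5 to 9 in the others.

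Pairs of libraries within a side were about as alike as pairs across the sides. Pearson's r on log2(FPKM + 1) over the 10002 rows, a correlation across rows that are not independent, had a median of 0.575 over the 6 pairs within splits 5 to 8. It was 0.586 over the 15 pairs within the other side and 0.586 over the 24 pairs across sides. Split 9 had the lowest mean r with the other 9 libraries, 0.539, followed by split 7 with 0.571 and split 8 with 0.573, and the remaining 7 were at 0.579 to 0.594. The median SD of log2(FPKM + 1) within a side peaked at 10 to 100 FPKM, at 2.39 in splits 5 to 8 and 2.70 in the others. It was 0.40 and 0.32 at 1000 FPKM and more, so the spread was several times larger among rows of middle level.

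The same rows were also looked up in the unnumbered splits. Among rows of 10 to 100 FPKM in the numbered set they detected a median of 53.5% at loci under 3 kb and 43.2% at 100 kb and more, and their highest at 100 kb and more was 48.7%, in rows that the numbered splits had chosen by their own mean. When the level was set by the unnumbered splits themselves, their highest at 100 kb and more was 54.1%, below the 76.0 and 67.4% of splits 7 and 8 and above the 37.8 to 53.5% of the other 8. The estimated depth was 0.128 M fragments in 1 unnumbered library and 7.79 to 38.7 M in the others. That shallow library is the only member of the set whose record is not marked as superseded.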

How the data were processed

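Per the labels' protocols, cells were picked by hand, cDNA was made with a SMARTer kit and Nextera libraries were sequenced on an Illumina instrument. The authors made the deposited FPKM values, with confidence bounds and a status per row, with tools that, per the submitters' processing notes, were TopHat 1.4.1 and Cufflinks 2.0.2. No source at hand names the genome build of these files. Status FAIL in at least 1 numbered split removed 46 rows and LOWDATA in every file 5797. FPKM hides fragment counts, so depth was estimated from the confidence bounds of 10 mitochondrial genes, to within 0.963% of a straight line. At these depths 1 FPKM on a transcript of 1 kb stands for 11.8 to 20.6 fragments, which PCR makes dependent. Gene classes and transcript lengths came from GENCODE 29 (48871 of the 55040 rows matched by identifier, 2007 by symbol).

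Rows with a mean of 1 FPKM or more were tested with limma 3.58.1 (R 4.3.3, trended variance) on log2(FPKM + 1), which understates changes of low rows, with a threshold of 0.05 on the adjusted p. The fit held only the 10 numbered splits. Library measures were compared with 2-sided exact permutation tests and adjusted over 29 measures. Other steps used Python 3.11.15, numpy 2.4.6, scipy 1.17.1 and pandas 2.3.3, and the fits were tested on simulated data. Alternatives covered the pseudocount, the filter on low values, rescaling, the variance model, a depth covariate, the detection level and each library left out. Leaving libraries out did not change which rows were tested. The gene lists and members were chosen with earlier results of these data known. The text names the 8 rows per direction with the largest passing differences, filled up by smallest p among rows seen in all 4 or at least 5 of 6 libraries of the higher side. It also draws on the 10 most abundant rows and the most abundant and smallest-p member of each list and class. The 15 rows of the presence pattern, the olfactory receptor genes, MALAT1 and NEAT1 were chosen after the data were seen. The other 42 samples were not analysed here.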

Additional observations from a re-analysis of the deposited data

Results flagged for a closer look

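A library stood far from the rest of its side in 25 of 136 groups checked, by a limit that flags about 1 in 20 groups of normally distributed values. FPKM of rows read in few libraries is not distributed that way, so the rate for these rows is not known. Split 9 stood apart from the other 5 libraries of its side in summed FPKM (1.12e+06), in detection of rows at 100 to 1000 FPKM (79.8%) and of loci under 3 kb (45.4%), in the share of summed FPKM at loci of 3 to 30 kb (45.8%), in B2M (21467 FPKM) and in SIKE1 (23.8 FPKM). Split 2 detected 100% of rows at 1000 FPKM and more, above its side.

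Among splits 5 to 8, FBXO16 was far higher in split 5 (100.2 FPKM), GLG1 in split 6 (9.22 FPKM), MPV17 in split 5 (0.364 FPKM) and IGHV1-2, an immunoglobulin heavy chain segment, in split 8 (2.32 FPKM). RFC4, a clamp loader subunit, and PSMC4 were far lower in split 7 (0.393 and 39.4 FPKM).

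In the other side, split 10 was far from the rest in PPIP5K2 (43.4 FPKM), MPV17 (0.642 FPKM), IER5, an early response gene (21.4 FPKM), and RP11-56A21.4, a pseudogene (3.06 FPKM). Split 3 was high in HLA-DMB (50.2 FPKM), CRELD2, a chaperone of the endoplasmic reticulum (19.5 FPKM), ATP5J (1297.0 FPKM), BAK1, a pro-apoptotic protein (1.85 FPKM), and FBXO16 (0.000205 FPKM, too low to read). Split 1 was high in PARP9 (1.85 FPKM) and TNFRSF17 (242.9 FPKM), and split 4 in NUDC (0.966 FPKM).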

How the results depend on the processing

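No paired analysis was possible because the 2 sides share no split number. The count of rows past the threshold was 1 as reported and 0 with a pseudocount of 0.1 or 10, a mean of 10 FPKM or more, the length trend removed, depth as a covariate, protein-coding rows alone or the exact rank-sum test. It was 5 with no filter and with no variance trend (PVT1, FBXO16, STAT5B, PARP9 and EXOC2 both times), 2 with size factors, 0 to 3 with 1 library left out, and 4 without splits 7, 8 and 9, an alternative added after seeing the data. Without splits 7 and 8 it was 19, 18 of them higher in splits 5 and 6, and PVT1 was not among them (limma adjusted p = 0.0631); the cause was not tested. The number of library measures that passed was 0 under every alternative run, and rows detected and the 3 contrasts kept their direction, although without splits 7 and 8 the length contrast was 0.00668 (exact permutation p = 1) and the class contrast −0.0874 (exact permutation p = 0.643). BAK1 turned to −0.25 without splits 7 and 8 and to −0.30 without 7, 8 and 9.

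Differences in percent of summed FPKM were small and turned sign: long noncoding −0.0128 with a mean of 10 FPKM or more, and loci under 3 kb −0.0136 with transcript length. Without splits 7 and 8 they were 0.516 for ribosomal protein, −0.239 for long noncoding, −0.384 for loci of 30 to 100 kb and −0.405 for 100 kb and more, and summed FPKM 108863. Without 7, 8 and 9 they were 0.354, −0.187, −0.0630 and −0.171, with pseudogenes 0.00413 and summed FPKM 43792. With 1 library left out they ran from −0.752 to 0.239 for ribosomal protein, −0.0726 to 0.225 for long noncoding, −0.0703 to 0.539 for 30 to 100 kb, −0.0842 to 0.448 for 100 kb and more and −0.0726 to 0.532 for mitochondrial rows, and detection at 1000 FPKM and more from −0.221 to 0.0442 percentage points. The level contrast could not be computed with a mean of 10 FPKM or more.

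With 4 and 6 libraries, the exact rank-sum test can give no row a p below 0.00952. Over 10002 rows such a p passes Benjamini-Hochberg adjustment only if many rows share it. The smallest adjusted p of that test was 0.774. Intervals from fragment numbers would cover counting error only.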

Other observations

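MALAT1 and NEAT1, long noncoding RNAs kept in the nucleus, were high in the libraries that stood apart on both sides. MALAT1 was at 2060, 1285 and 1569 FPKM in splits 7, 8 and 9 and at 360.4 to 765.0 in the other 7, with no overlap. NEAT1, whose status was not OK in every library, was at 20.6, 22.2 and 30.8 FPKM in splits 7, 8 and 9 and at 0 to 5.55 in the other 7. These rows were picked after their values were seen. The same 3 libraries had the lowest summed FPKM and the length contrasts nearest to or above 0 (0.16, 0.05 and −0.04), although splits 7 and 8 held the most rows and split 9 the fewest. Of the other nuclear or regulatory transcripts looked at, TUG1 was at 4.05, 17.05 and 0.0989 FPKM in splits 7, 8 and 9 and at 0 to 54.2 in the rest. OIP5-AS1 was at 102.4, 49.6 and 28.7 FPKM against 0.264 to 139.7. KCNQ1OT1 was at 0.269, 0 and 0 FPKM against 0 to 1.24. TUG1, OIP5-AS1 and KCNQ1OT1 thus did not set these libraries apart. In the unnumbered splits MALAT1 ran from 481.5 to 2543 FPKM.

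RP4-604K5.1, picked for being the most abundant row at an unadjusted p under 0.05 with splits 5 to 8 higher, was at 2365, 7563, 4389 and 3961 FPKM in splits 5 to 8. In splits 1, 2, 3, 4, 9 and 10 it was at 41.1, 2415, 127.7, 5255, 2.91 and 3018 FPKM, so the sides overlapped (log2 difference 3.78, limma adjusted p = 0.832).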
